A study of Drosophila melanogaster with 3 samples.

Results

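The Wnt, Hedgehog, Dpp, Notch and EGFR genes described here are 54 named members of 5 signalling pathways, of 13945 protein-coding genes on the 6 chromosome arms of Drosophila melanogaster. They were chosen by name, but with earlier results of these data known. They comprise 13 ligands, 7 localised regulators (feedback inhibitors and other factors made in restricted domains), 10 receptors and 24 intracellular transducers. Chromatin immunoprecipitation and sequencing (ChIP-seq) measured where CG2116 fused to eGFP sat on DNA. All 3 libraries, biological replicates 1, 2 and 4 in the labels, form 1 group of mixed-sex whole embryos collected between 0 and 24 h from 1 transgenic strain that carries a stable C-terminal GFP fusion of CG2116. Nothing in the labels names the promoter that drives the fusion or separate embryo collections, so the spread between libraries may be technical, and there is no second condition to compare. Depth is not given in the sources used here, no list from untagged embryos or input was analysed here, and the labelled tissue cannot be checked against expression markers in peak lists. In a whole embryo, binding in fewer cells and weaker binding in every cell cannot be told apart.

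These pathways carry signals between cells of the developing embryo. Ligands such as wg, hh, dpp and Dl are made in restricted stripes or cell groups, and they set segment polarity, dorsal-ventral pattern and neural fate. Receptors at the membrane pass the signal to kinases, adaptors and transcription factors, many of which are supplied by the mother and found in nearly all cells. The same few transducers are therefore used again and again, while the ligands and feedback inhibitors decide where and for how long a pathway is active.

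The promoter sequences beneath 5 member summits show the range described below, from the strongest member peak to a weak ligand peak. Each was read 5′ to 3′ on the strand of the gene from the RefSeq copy of dm6, within 100 bp of the summit (the peak's highest point) and ending before the annotated exon. Capitals mark a match to any of 6 searched words on either strand. The Cbl run spans chr3L:8424817-8424953 on the plus strand and holds GCAACNCT and, on the opposite strand, GGTCACAC. The N run spans chrX:3134646-3134846 on the plus strand and holds GCAACNCT. The Ras85D run spans chr3R:9513079-9513279 on the minus strand and holds the palindrome TATCGATA, known as the DRE site. The spi run spans chr2L:19575674-19575874 on the minus strand and holds none of the words. The wg run spans chr2L:7306945-7307145 on the plus strand and holds CAGCTG, an E-box.
Cbl: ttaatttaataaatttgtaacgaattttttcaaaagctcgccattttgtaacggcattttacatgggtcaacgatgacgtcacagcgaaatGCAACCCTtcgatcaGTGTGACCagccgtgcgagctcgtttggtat
N: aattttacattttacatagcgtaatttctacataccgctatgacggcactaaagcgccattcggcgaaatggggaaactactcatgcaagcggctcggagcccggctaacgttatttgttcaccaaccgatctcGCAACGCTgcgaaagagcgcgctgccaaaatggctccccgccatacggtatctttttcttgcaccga
Ras85D: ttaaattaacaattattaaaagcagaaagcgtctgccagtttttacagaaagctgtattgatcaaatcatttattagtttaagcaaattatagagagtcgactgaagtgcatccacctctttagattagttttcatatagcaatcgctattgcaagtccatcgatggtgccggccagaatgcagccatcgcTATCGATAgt
spi: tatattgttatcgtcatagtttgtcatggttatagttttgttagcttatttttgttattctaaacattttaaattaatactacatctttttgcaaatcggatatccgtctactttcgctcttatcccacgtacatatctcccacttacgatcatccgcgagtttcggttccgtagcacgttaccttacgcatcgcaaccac
wg: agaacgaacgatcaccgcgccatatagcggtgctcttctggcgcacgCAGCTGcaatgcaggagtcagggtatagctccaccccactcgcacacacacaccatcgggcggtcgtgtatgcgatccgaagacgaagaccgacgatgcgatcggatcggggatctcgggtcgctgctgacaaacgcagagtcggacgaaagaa

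Most of the signalling genes carried a CG2116-eGFP peak at a start. The authors' IDR list keeps peaks by a limit on their irreproducible discovery rate. A gene was called bound where a summit from that list fell no more than 500 bp from one of its annotated transcription start sites (TSSs). By this measure 37 of the 54 members were bound (68.5%), against 5941 of 13945 protein-coding genes (42.6%). The share differed by role: 9 of 20 ligands and localised regulators were bound (45.0%), 7 of 10 receptors (70.0%) and 21 of 24 transducers (87.5%). Ligands alone stood at 5 of 13 (38.5%) and localised regulators at 4 of 7 (57.1%), so the ligands and localised regulators together were near the share of all genes and the transducers far above it. By pathway the bound members numbered 11 of 13 in EGFR signalling, 12 of 18 in Wnt, 4 of 6 in Notch, 6 of 10 in Dpp and 4 of 7 in Hedgehog. The members were chosen by name and the roles by textbook function, both with earlier results of these data known, and these counts carry no test.

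Each library taken alone gave the same order of roles. Among the 7137 strongest summits of each replicate, as many as the IDR list holds, ligands and localised regulators numbered 11, 8 and 9 of 20 in replicates 1, 2 and 4. Receptors numbered 8, 6 and 8 of 10, and transducers 20, 19 and 20 of 24. All members together numbered 39, 33 and 37 of 54, beside 42.1%, 41.0% and 42.0% of all protein-coding genes. The share of ligands and localised regulators minus the share of transducers was -28.3, -39.2 and -38.3 percentage points in the 3 libraries, a mean of -35.3 ± 6.03 points (SD, n = 3), and -42.5 points in the IDR list. The pooled list without an IDR limit held a summit at 50 of 54 members and at 60.4% of all genes. There 17 of 20 ligands and localised regulators, 10 of 10 receptors and 23 of 24 transducers had one, a difference of -10.8 points. The pooled list holds 30000 entries labelled as peaks and background, as many as each replicate list, so an entry there is not yet a called peak. Receptors and transducers were also near their ceiling in it. The narrower gap therefore cannot show how much of the difference lies in the IDR limit.

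**Figure D1:**
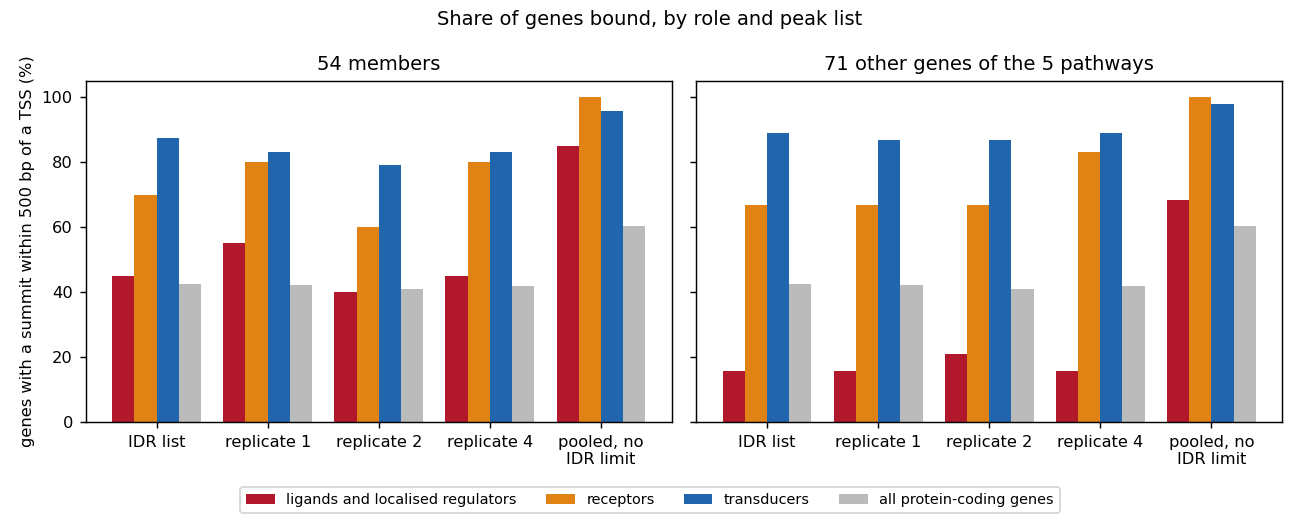
Bars give the percentage of genes with a summit within 500 bp of a TSS in the IDR list, in the strongest summits of replicates 1, 2 and 4, and in all pooled peaks, for the members (left) and for 71 other genes of the same pathways (right), with all protein-coding genes in grey. Transducers stand above ligands and localised regulators in each list, and the gap is narrowest in the pooled list.

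Spacing between genes moved with the roles. A gene was called isolated when no TSS of another gene came within 1000 bp of any of its own. Isolated starts made up 14 of 20 ligands and localised regulators, 4 of 10 receptors and 7 of 24 transducers, against 51.8% of all genes. Of all isolated protein-coding genes 23.8% were bound, and of those with a close neighbour 62.8%. Among isolated members the bound share was 4 of 14 ligands and localised regulators (28.6%), 2 of 4 receptors and 6 of 7 transducers (85.7%). Among members with a close neighbour it was 5 of 6 (83.3%), 5 of 6 (83.3%) and 15 of 17 (88.2%) in the same order. At isolated starts the share of ligands and localised regulators minus that of transducers was -57.1 points. At starts with a close neighbour the members' shares lay closer together, but that rests on 6 ligands and localised regulators. Other genes of the pathways, given below, also had closer shares there than at isolated starts, though further apart than the members' shares. Member transducers stood at a like share in both classes of start. The part of spacing in the difference between roles was not tested.

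**Figure D2:**
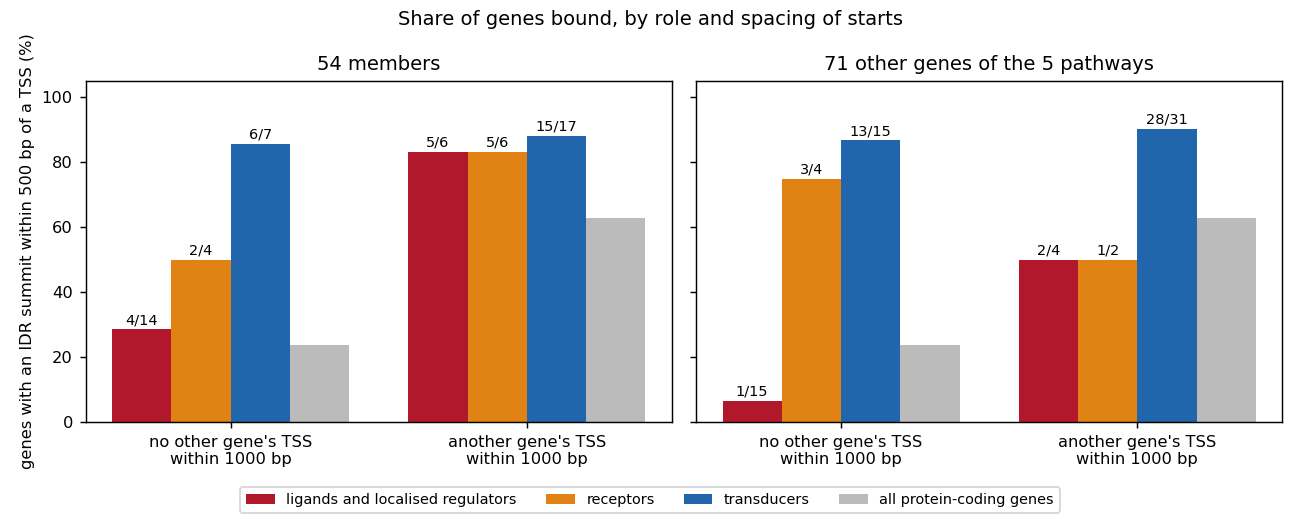
Bars give the percentage of genes bound by the IDR list and the 500 bp limit, for starts with no other gene's TSS within 1000 bp and for starts with one, by role, in members (left) and other genes of the pathways (right), with counts above the bars and all protein-coding genes in grey. Isolated ligands and localised regulators were bound at 4 of 14 starts and isolated transducers at 6 of 7.

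Signal is given below as relative signal. This is the deposited signal of the replicate summit no more than 100 bp from the IDR summit, in units of the median that the same library had at matched IDR peaks, so that 1 is a typical IDR peak. For genes not bound, the strongest replicate summit no more than 500 bp from a start was taken. Relative signal ranks peaks and is no measure of molecules bound. Bound members had a median relative signal of 1.08, against 1.33 over all bound genes. The medians were 1.20 for ligands and localised regulators, 1.21 for receptors and 1.07 for transducers, but the first of these groups was mixed, with a median of 0.708 over the 5 bound ligands and 1.25 over the 4 bound localised regulators. Of the 37 bound members 8 lay among the top 25% of all bound genes by pooled signal, and 6 of these were transducers.

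Among the ligands, spi, the main EGFR ligand of the embryo, had the strongest start. Its relative signal was 2.31, 2.63 and 2.36 in replicates 1, 2 and 4, a mean of 2.44 ± 0.170 (SD, n = 3), and it ranked 1274 of 5941 bound genes. The peak at chr2L:19575618-19575877 had its summit 187 bp upstream of the nearest TSS, and all 3 of the separate spi start clusters had an IDR summit. The gbb gene, which codes for a broadly made bone morphogenetic protein (BMP), followed with 1.84, 1.79 and 1.25, a mean of 1.63 ± 0.329. Its strongest summit lay 228 bp upstream of gbb but closer, at 146 bp, to the TSS of the neighbour ytr. A weaker IDR summit lay 25 bp from the gbb TSS. The remaining bound ligands were weak. Wnt6 had 0.712, 0.947 and 0.464 from a summit 412 bp upstream. Dl, the Notch ligand, had 0.623 and 0.504 in replicates 2 and 4 and no summit within 100 bp in replicate 1. The founding Wnt ligand wg had 0.553, 0.336 and 0.632, a mean of 0.507 ± 0.153, with its peak at chr2L:7306795-7307294. The weakest of the 7137 strongest summits stood at 0.487, 0.516 and 0.494 in the 3 replicates, so wg lay close to that edge and below it in replicate 2. Thus spi lay above wg in each library, with no overlap between their values.

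The 8 unbound ligands were Wnt2, Wnt4, Wnt5, hh, dpp, scw, Ser and vn. Wnt2, scw (a BMP ligand of the early embryo) and Ser (the other Notch ligand) had no summit within 500 bp of a start in any replicate list or in the pooled list. The others had weak replicate summits. At dpp, the fly BMP that patterns the dorsal side, they reached 0.288, 0.199 and 0.308. At hh they reached 0.426, 0.245 and 0.347, and at Wnt4 0.252, 0.383 and 0.228. Wnt5 had 0.535, 0.409 and 0.183, and vn, a neuregulin-like EGFR ligand, had 0.516 and 0.554 in replicates 1 and 4 only. For hh, dpp and Wnt4 every replicate value lay under the weakest of the strongest summits, while Wnt5 passed it in replicate 1 and vn in replicates 1 and 4.

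Of the localised regulators, aos, nkd, neur and S were bound, and brk, fng and rho were not. The secreted EGFR antagonist aos had 0.873, 1.60 and 1.38, a mean of 1.29 ± 0.374. The Wnt feedback inhibitor nkd had 0.977, 0.938 and 1.67, a mean of 1.20 ± 0.413. S, which helps spi leave the endoplasmic reticulum, had 1.09, 0.785 and 1.22, and its summit lay 69 bp from the TSS of ast. The values of these 3 genes overlapped, and all sat near a typical IDR peak. At neur, a ubiquitin ligase that activates Notch ligands, only replicate 2 had a summit within 100 bp of the IDR summit, at 1.36. Within 500 bp of its starts the strongest summits reached 1.00, 1.36 and 1.08, so signal was present in all 3 libraries but not at 1 position. Unbound fng, which adds sugar to Notch, had 0.392, 0.239 and 0.434. The BMP target repressor brk had 0.315 and 0.275 in replicates 1 and 4, and rho, the protease that releases spi, had 0.400 in replicate 4 only. The EGFR ligand spi and its chaperone S were therefore bound, and the protease that acts on them was not called.

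Among the receptors, smo, the membrane protein that transmits the Hedgehog signal, had the highest signal. It had 3.21, 3.33 and 2.17, a mean of 2.90 ± 0.642 and rank 1012. Its strongest summit, at chr2L:277190-277434, lay 212 bp from smo and 158 bp from CG17078. A weaker IDR summit lay 20 bp from the smo TSS. The BMP type II receptor put had 1.99, 0.900 and 1.91, a mean of 1.60 ± 0.609, with the summit between put and His4r. Replicate 2 was low at put, as it was at N, which had 1.56, 0.709 and 1.59, a mean of 1.29 ± 0.500. The N peak, chrX:3134496-3134995, lay alone, since the nearest other TSS was 6231 bp from that of N. The BMP type I receptor sax had 1.30, 1.13 and 1.18, a mean of 1.21 ± 0.0854. Egfr had 0.885, 1.34 and 0.792 from a summit 316 bp upstream that was closer to CG30289. The Wnt co-receptor arr had 1.06, 0.726 and 1.02, and tkv, the other BMP type I receptor, had 0.546, 0.487 and 0.766 at 1 of its 4 start clusters. Thus smo exceeded arr and tkv in every library, and sax, N and put overlapped one another.

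The unbound receptors were ptc, which binds Hedgehog, and the Wnt receptors fz and fz2. Replicate summits at ptc reached 0.463, 0.413 and 0.504, and at fz2 0.520, 0.184 and 0.491. At fz they reached 0.232 and 0.463 in replicates 1 and 2. Only fz2 in replicate 1 and ptc in replicate 4 passed the weakest of the 7137 strongest summits of that library. In Wnt signalling the co-receptor arr was thus called and neither frizzled member was, and in Hedgehog signalling smo was called and ptc was not. The frizzled genes fz3 and fz4, which are not members but among the other pathway genes described below, were bound, with means of 1.16 and 1.36.

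The transducers held the highest values. Cbl, a ubiquitin ligase that turns down EGFR, had 52.6, 42.5 and 58.6, a mean of 51.2 ± 8.15 (SD, n = 3), at chr3L:8424534-8425383. It ranked 20 of 5941 bound genes, and its isolated start lay 2749 bp from the nearest other TSS. Axn, the scaffold of the complex that destroys arm, had 10.2, 9.35 and 9.94, a mean of 9.84 ± 0.455, at chr3R:30022445-30023111, with its summit 58 bp upstream and 136 bp from RpS28a. Every library placed Cbl above Axn, and Axn above every remaining member. Raf, the kinase downstream of Ras85D, had 7.22, 6.33 and 5.76, a mean of 6.44 ± 0.739, at chrX:2339948-2340462, and pygo, a nuclear coactivator of arm, had 5.19, 4.35 and 4.64, a mean of 4.73 ± 0.428, at chr3R:31580585-31581035. Both exceeded all lower-ranked members in every library, and Raf lay above pygo without overlap.

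Below these came pan, Ras85D and sgg. The Wnt transcription factor pan, on chromosome 4, had 2.62, 3.84 and 1.95, a mean of 2.80 ± 0.956. The GTPase Ras85D had 2.80, 2.13 and 2.61, a mean of 2.52 ± 0.346, at chr3R:9512929-9513428. The kinase sgg had 2.05, 1.06 and 2.61, a mean of 1.91 ± 0.784, with IDR summits at 3 of its 8 start clusters. Values of pan, Ras85D and sgg overlapped one another and those of spi and smo.

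The other 14 bound transducers ranged from 0.447 at Su(fu), the inhibitor of ci, to 1.09 at rl, the ERK kinase. With rl, the destruction-complex subunits Apc2 and Apc, the Wnt adaptor dsh, the kinesin-like Hedgehog scaffold cos and the Notch coactivator mam lay above 1 on average. Below it lay the BMP cofactors shn and Med, the exchange factor Sos, the kinases fu and Dsor1, and arm, drk and Su(fu). The beta-catenin arm had 0.655, 0.926 and 0.366, and the adaptor drk had 0.534, 0.606 and 0.404. Su(fu) had 0.384, 0.282 and 0.674, so in replicates 1 and 2 it fell under the weakest of the strongest summits. The unbound transducers were lgs, ci and Mad. The Wnt adaptor lgs had 0.386, 0.282 and 0.473, the Hedgehog transcription factor ci had 0.191, 0.470 and 0.420, and the BMP effector Mad had 0.361 and 0.323 in replicates 1 and 4. In the EGFR cascade drk, Sos, Ras85D, Raf, Dsor1, rl and Cbl were all bound by the 500 bp rule, although the summits at Dsor1 and rl lay closer to the TSS of a neighbour and lost the call when the TSS had to be the nearest. By the 500 bp rule each of the Wnt, Hedgehog and Dpp pathways had 1 unbound transducer.

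**Figure D3:**
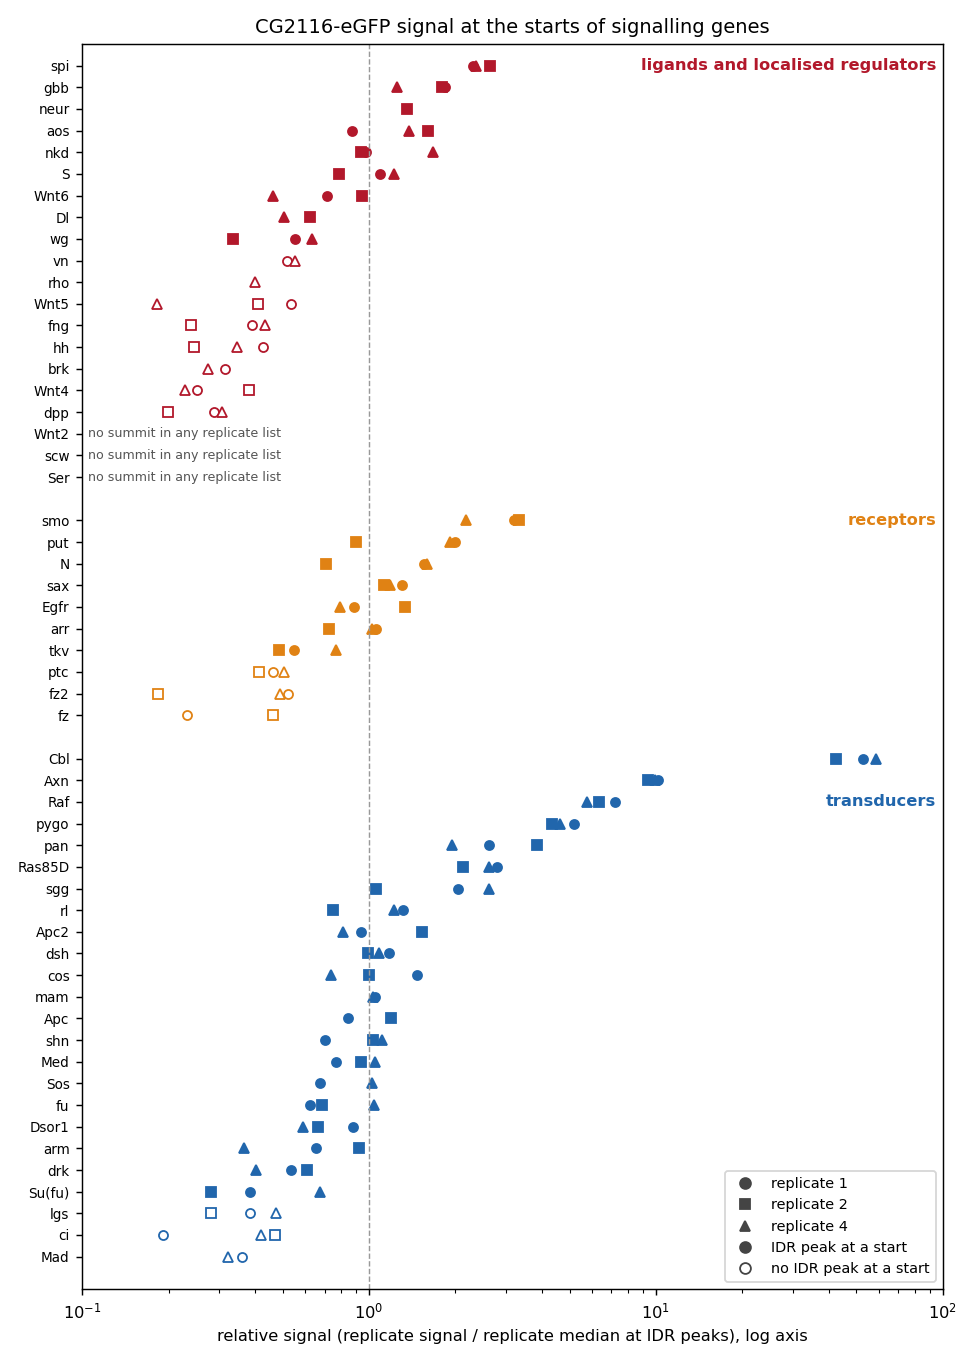
Points give relative signal (log axis, 1 is the median IDR peak of that replicate) at each member's starts in replicates 1, 2 and 4, filled where the gene was bound, by role. Cbl sits between 42.5 and 58.6, above all other members, and Wnt2, scw and Ser had no summit in any replicate list.

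The call rests on limits that some members lie close to. Just inside the IDR limit were Su(fu), drk and arm, with a pooled signal of 157, 159 and 165, and just outside were vn, fz2 and lgs with 124, 109 and 109. The weakest IDR peak had a pooled signal of 144. Just inside the 500 bp limit were Wnt6, Egfr and Apc, with summits 412, 316 and 248 bp from a TSS (the strongest summit at mam lay 458 bp away, and a weaker one lay closer to another of its starts). Just outside were Mad, brk and fz, with the nearest IDR summit at 633, 652 and 1774 bp. Thus Mad and brk had IDR peaks close to their starts that the window left out.

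Bound member peaks sat mostly just upstream of a start. The median summit lay at -98.0 bp from the nearest TSS of the member, against -86.0 bp over all bound genes, where negative means upstream. Upstream summits were found at 33 of 37 members, against 89.6% of all bound genes, and 19 of 37 lay within 100 bp of a TSS, against 52.7%. Ligands and localised regulators had a median of -170 bp, receptors -16.0 bp and transducers -92.0 bp. Within 100 bp lay 2 of 9 summits of ligands and localised regulators, 4 of 7 of receptors and 13 of 21 of transducers. The summits downstream of a start belonged to tkv, arr, arm and drk.

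**Figure D4:**
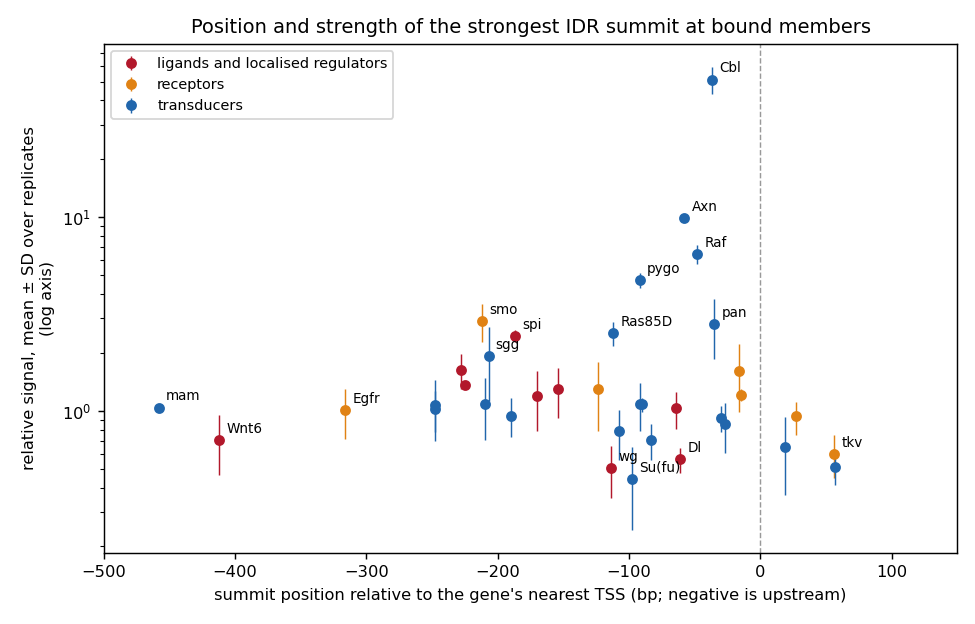
Each point is the strongest IDR summit at a bound member, placed by its distance from the nearest TSS of that gene (bp, negative is upstream) and its relative signal (log axis, mean ± SD over the replicates with a summit within 100 bp). Cbl, Axn, Raf and pygo, the 4 strongest members, all lie between 37 and 92 bp upstream.

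Many of these peaks were shared with a neighbour. Another gene's TSS lay within 500 bp of the strongest summit at 20 of 37 bound members, 2 of 9 ligands and localised regulators, 4 of 7 receptors and 14 of 21 transducers, against 61.7% of all bound genes. The summit was closer to the neighbour at 7 of them, namely gbb, Egfr, smo, cos, mam, rl and Dsor1. When a gene had to own the TSS nearest to any of its summits, 33 of 54 members and 32.5% of all protein-coding genes stayed bound. By role that left 9 of 20 ligands and localised regulators, 6 of 10 receptors and 18 of 24 transducers.

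The replicates varied more at member peaks than at bound genes at large. The coefficient of variation of relative signal had a median of 23.4% over bound members and 16.7% over all bound genes. A summit among the strongest of every replicate lay within 100 bp at 26 of 37 bound members (5 ligands and localised regulators, 6 receptors and 15 transducers), against 79.7% of all bound genes. Members were also weaker than bound genes at large, as given above, and the part of signal strength in this spread was not tested.

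Peaks inside the genes, away from the starts, were frequent. IDR summits over 500 bp from the gene's own TSSs lay within 25 of the 54 members (46.3%), against 7.47% of all protein-coding genes. All 59 such member summits were also over 500 bp from every annotated TSS, a class found in 5.87% of all protein-coding genes. The members are long, with a median length of 12.4 kb against 2.17 kb. Per 100 kb of gene, the members held 5.15 summits away from every TSS and all protein-coding genes held 1.42. By role, 10 of 20 ligands and localised regulators, 8 of 10 receptors and 7 of 24 transducers held such a summit. The transducers, highest at starts, thus had the lowest share inside the gene, but they were also the shortest. Median lengths were 16.2 kb for ligands and localised regulators, 33.5 kb for receptors and 7.46 kb for transducers. The part of length in these shares was not tested. The density was 4.51 per 100 kb in ligands and localised regulators (2.52 in ligands, 7.46 in localised regulators), 5.32 in receptors and 5.49 in transducers. Without Raf and shn, left out after their values were seen, the transducers stood at 2.42 per 100 kb. Bound members held 6.05 per 100 kb, and members not bound at a start held 3.48, in 7 of 17 genes.

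These inner peaks were moderate in strength and concentrated in a few long genes. Raf and shn held 8 each, fz held 6, and arr and S held 4 each. In Raf, shn and arr some of these peaks overlap one another, such as chrX:2296016-2296515 and chrX:2296222-2296721 in Raf. The counts and densities take each summit as separate. The strongest lay in Raf at chrX:2297591-2297848, with a relative signal of 1.97, 1.30 and 2.84, a mean of 2.04 ± 0.768. The next lay in S at chr2L:1072246-1072503, with 1.92, 1.55 and 2.12, a mean of 1.87 ± 0.291, which exceeded the start of S in every library. Inside aos, at chr3L:16480474-16480680, the values were 1.47, 1.66 and 2.04, a mean of 1.72 ± 0.291. Genes unbound at a start also held such peaks. In vn, at chr3L:5824139-5824348 and 21430 bp from its nearest TSS, the values were 1.19, 1.38 and 1.82, and in fz, at chr3L:14303822-14304321, they were 1.22, 1.13 and 1.88. Both exceeded a relative signal of 1 in each library.

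Sequence words were sought on either strand in the 100 bp to each side of the summits of promoter peaks. TATCGATA was found at 5 of 37 member peaks (13.5%), against 844 of 5166 IDR promoter peaks (16.3%) and 1.26% of lower-ranked pooled promoter peaks. Its carriers were smo, sax, tkv, Egfr and Ras85D, of which 4 are receptors. At smo and Egfr the summit lay closer to a neighbour, and the word was not in the window from 250 bp upstream to 50 bp downstream of their own TSSs. None of the 9 peaks of ligands and localised regulators held it, while among the other pathway genes those of Actbeta and tok did, 2 of 3. GCAACNCT was found at 5 of 37 (13.5%), at Cbl, Axn, N, mam and rl, against 8.77% of IDR promoter peaks and 2.97% of lower-ranked ones. GGTCACAC, a core promoter word known as motif 1, was found at 7 of 37 (18.9%), against 9.79% and 3.17%. CAGCTG was at 2 of 37 (5.41%), against 15.8% and 11.9%, and TATAAA, the TATA box, at 11 of 37 (29.7%), against 32.0% and 25.7%. Cbl and Axn, the 2 strongest members, both carried GCAACNCT, while Raf and pygo carried neither it nor TATCGATA within 100 bp of the summit. From 250 bp upstream to 50 bp downstream of a TSS, however, pygo and dsh did hold TATCGATA, as did tkv, sax and Ras85D. A match is a run of letters and no site, and these shares carry no test.

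A further 71 genes of the same pathways, listed by textbook role and not among the members, gave the same order of roles. Of these 48 were bound (67.6%), namely 3 of 19 ligands and localised regulators (15.8%), 4 of 6 receptors (66.7%) and 41 of 46 transducers (89.1%), beside the 42.6% of all protein-coding genes. In replicates 1, 2 and 4 the ligands and localised regulators numbered 3, 4 and 3 and the transducers 40, 40 and 41. Among isolated starts they numbered 1 of 15 (6.67%) and 13 of 15 (86.7%). Among starts with a close neighbour they numbered 2 of 4 and 28 of 31 (90.3%). These shares lay closer together than at isolated starts, but, unlike among the members, they still lay apart. That rests on 4 ligands and localised regulators. This list was also drawn up with earlier results of these data known.

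The 5 with the highest pooled signal are given here, and by mean relative signal dos, at 4.19, would stand just above the fifth of them. The strongest of these genes was rdx, a ubiquitin ligase adaptor that acts on ci, with 18.1, 19.4 and 21.9, a mean of 19.8 ± 1.94, so that of all pathway genes listed it came second to Cbl. Krn, an EGFR ligand related to spi, had 7.01, 7.05 and 5.07, a mean of 6.38 ± 1.13, from a summit it shared with Ndfip and CG7484. Gap1, a brake on Ras, had 5.36, 5.48 and 3.98, a mean of 4.94 ± 0.835. The kinase CkIalpha had 4.20, 3.78 and 5.07, a mean of 4.35 ± 0.656, and botv, an enzyme of heparan sulphate synthesis, had 3.89, 4.00 and 4.56, a mean of 4.15 ± 0.361. The other bound ligand or localised genes were tok, a protease that acts on BMP inhibitors, with 2.34, 2.27 and 2.12, and the activin-type ligand Actbeta, with 1.16, 0.722 and 0.816. Krn thus exceeded spi in every library, and Gap1, CkIalpha and botv overlapped one another.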

How the data were processed

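The authors deposited peak lists on the genome builds dm6 and dm3; the 5 dm6 lists (replicates 1, 2 and 4, pooled, and IDR) were used here. Each deposited list gives every peak a signal, a score set by the authors' peak caller on a scale that shifts with depth, and a summit offset. Aligner, caller, IDR threshold and depth are not stated in the sources used here. Chromatin was sonicated to 200 to 800 bp, per the labels. Genes and TSSs came from Ensembl release 115 on 6 arms, and sequence from RefSeq (ATG at 99.8% of annotated start codons). The annotation listed 53 of 54 members by symbol, and Dl was matched as Delta. Python 3.11.15, numpy 2.4.6 and pandas 2.3.3 were used, and the counting was tested on simulated data. Replicate signals were scaled by medians of 77.8, 99.0 and 133. The members, roles and lists were chosen with earlier results of these data known. Values are given for the 12 members highest in pooled signal, for bound ligands, localised regulators and receptors, for 3 members each side of a limit, and for the 5 other pathway genes highest in pooled signal with any bound ligand or localised regulator among them. Alternatives varied the window, list, replicate, nearest TSS, spacing and roles.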

Additional observations from a re-analysis of the deposited data

How the results depend on the processing

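The difference between ligands with localised regulators and transducers kept its sign under every alternative run. From -42.5 points it went to -28.3 in the stronger part of the IDR list and in replicate 1 alone, -10.8 with all pooled peaks, -30.0 when the TSS had to be nearest, -57.1 at isolated starts and -57.0 under alternative roles (ptc, ci and shn as localised, S, gbb and spi as broadly used). Of the genes moved, S, gbb, spi and shn were bound and ptc and ci were not. The wider gap under alternative roles follows from these moves. Roles were chosen with earlier results known, so it is no independent check. Ignoring each replicate in turn, and keeping only IDR peaks found among the strongest summits of both other replicates, gave -36.7 to -44.2 points. Ligands and localised regulators bound numbered 17 of 20 with all pooled peaks, against 60.4% of all protein-coding genes. They numbered 5 of 20 when recovered in all 3 replicates, against 34.9% of all protein-coding genes. This class thus lay above the share of all genes with all pooled peaks and below it among recovered peaks. Isolated starts left 12 bound members, namely 4 ligands and localised regulators, 2 receptors and 6 transducers. Fewer genes enter, and the bound share was also lower, 48.0% of 25 members against 68.5% of 54. The filter on both other replicates left 28 to 32 bound members. By role these were 6 to 7 ligands and localised regulators, 6 to 7 receptors and 16 to 19 transducers. That filter is stricter than the IDR list and makes no new IDR call. It left 36.3%, 37.7% and 37.0% of all protein-coding genes bound without replicates 1, 2 and 4, against 42.6% in the IDR list. TATCGATA lay at 2 member peaks within 50 bp. For relative signal, Axn (9.37), dsh (0.981) and mam (0.996) moved beyond 1 SD within 50 bp, where gbb and neur had no replicate summit. Values at Cbl (51.2 to 48.8) and Raf (6.44 to 6.13) fell by a like share, so the move was not particular to Axn and mam. Their SDs were small, 0.455 and 0.0167, the latter from 2 replicates, and dsh kept 2 replicates. Within 200 bp neur went to 1.15. No paired analysis was possible because there is 1 group. Unknown depth limits what an absent peak can mean, and with 3 libraries no outlier rule applies.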

Other observations

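GAGAGAG, a word known from binding of the GAGA factor, was spread differently from the other words. In the 100 bp to each side of summits it was at 3 of 37 member peaks (8.11%). That compares with 2.65% of IDR promoter peaks and 6.80% of lower-ranked ones. From 250 bp upstream to 50 bp downstream of any TSS it was found at 14 of 54 members (25.9%) and 15 of 71 other pathway genes (21.1%), against 9.09% of all protein-coding genes. Among members it was at 5 of 20 ligands and localised regulators, 5 of 10 receptors and 4 of 24 transducers. Members not bound at a start carried it at 7 of 17 (41.2%), namely fz, fz2, ptc, dpp, brk, Ser and fng, and bound members at 7 of 37 (18.9%). Over all protein-coding genes the shares were 9.16% of those not bound and 9.01% of those bound. TATCGATA was found at 0 of 17 unbound members and 5 of 37 bound ones (13.5%), against 1.81% of unbound and 21.4% of bound protein-coding genes, so its count is nothing particular to the members. Members have several start clusters at 18 of 54 genes, and each further start adds sequence to the search. The part of this in the counts was not tested.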
